A study of Mus musculus with 3 samples.

Results

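The genes described here are grouped as shut-off genes of the light response of rods and cones: the arrestins Sag and Arr3, the opsin kinase Grk1, the RGS9 complex (Rgs9, Rgs9bp and Gnb5), phosducin (Pdc) and the phosphatase Ppef2. They were chosen by name, and all 8 were found among 21366 named genes on the arrays, through 14 of 28329 named probes. The arrays measured RNA of mouse retina at postnatal day 12, with 1 array for the Otx2 KI genotype, 1 for Crx KO and 1 for wild-type. The labels give no further allele, no strain, no number of pooled animals, no locus for the Otx2 KI and no exons for the Crx KO; KI and KO are the usual short forms of knock-in and knockout. Total RNA was labelled with the dye Cy3 and hybridised to a 1-colour Agilent array. The comparisons ask how far each mutant departs from wild-type and the 2 mutants from each other.

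A photon turns an opsin into an active state that drives transducin, and a photoreceptor recovers its sensitivity as this cascade is switched off. Grk1 phosphorylates the active opsin, arrestin binds the phosphorylated form and blocks it, and the RGS9 complex speeds the hydrolysis of GTP by transducin. Phosducin binds the beta and gamma subunits of transducin, and Ppef2 is a calcium-binding phosphatase of photoreceptors related to a fly enzyme that acts on the visual pigment. Crx and Otx2 are homeodomain transcription factors of 1 family, and photoreceptor genes are the main targets that Crx activates.

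Promoter sequences are shown because the genotypes are named for factors that bind DNA at the letters TAATCC, and because the members did not move alike. RefSeq's table (GRCm38.p6) held a promoter for 7 of the 8 genes, all but Rgs9bp. In the 250 bases before each annotated start, TAATCC was searched on both strands, where the opposite strand reads GGATTA. It was present in 3 of the 7, Sag, Gnb5 and Ppef2, and in 6.25% of the 32851 promoters of the table. The shorter TAATC, which lies within every TAATCC, was present in 5 of 7 and in 19.8% of all promoters. TGCTGA, the half-site of the rod factor Nrl, was present in 3 of 7 (Sag, Rgs9 and Ppef2) and in 16.1% of all promoters. In the lines below, 5′ to 3′ towards the start, capitals mark either of these homeodomain motifs on either strand.
Sag (chr1:87803430-87803679, plus strand): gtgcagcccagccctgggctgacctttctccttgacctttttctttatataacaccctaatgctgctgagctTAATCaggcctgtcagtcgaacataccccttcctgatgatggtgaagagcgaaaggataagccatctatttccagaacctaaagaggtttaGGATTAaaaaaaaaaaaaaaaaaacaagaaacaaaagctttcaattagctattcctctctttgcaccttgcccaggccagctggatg
Arr3 (chrX:100605247-100605496, plus strand): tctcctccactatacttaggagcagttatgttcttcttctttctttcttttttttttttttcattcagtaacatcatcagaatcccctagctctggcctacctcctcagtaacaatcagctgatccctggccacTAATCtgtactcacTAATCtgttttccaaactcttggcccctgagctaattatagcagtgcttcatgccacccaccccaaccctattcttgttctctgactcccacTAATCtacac
Gnb5 (chr9:75306038-75306287, plus strand): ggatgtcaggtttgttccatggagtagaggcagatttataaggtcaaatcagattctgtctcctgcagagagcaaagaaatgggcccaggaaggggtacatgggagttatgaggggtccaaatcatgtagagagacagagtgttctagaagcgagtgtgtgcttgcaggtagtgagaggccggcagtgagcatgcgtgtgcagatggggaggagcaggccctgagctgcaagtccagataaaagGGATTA
Ppef2 (chr5:92256279-92256528, minus strand): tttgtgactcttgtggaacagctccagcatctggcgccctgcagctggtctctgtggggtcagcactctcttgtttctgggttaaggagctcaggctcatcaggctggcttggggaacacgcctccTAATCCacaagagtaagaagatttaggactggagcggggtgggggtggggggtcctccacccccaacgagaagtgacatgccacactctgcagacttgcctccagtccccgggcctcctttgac
Rgs9 (chr11:109298182-109298431, minus strand): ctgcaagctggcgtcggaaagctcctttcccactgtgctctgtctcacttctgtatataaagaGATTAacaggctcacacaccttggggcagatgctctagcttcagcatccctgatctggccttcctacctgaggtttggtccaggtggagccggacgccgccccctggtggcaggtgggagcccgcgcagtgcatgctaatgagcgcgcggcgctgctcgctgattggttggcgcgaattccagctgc
In Sag, GGATTA begins 87 bases before the start, and in Ppef2, TAATCC begins 124 bases before it. Arr3 holds TAATC at 116, 102 and 10 bases before its start and no TAATCC. The windows of Grk1 and Pdc hold none of the 3 motifs. Binding was not measured, and a link between the motifs and the differences in signal was not tested.

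Values below are scaled signals, that is, the scanner software's background-subtracted Cy3 intensity after each array was brought to the wild-type array's 75th percentile. Of the non-control spots on an array, 63.5% to 67.1% passed the scanner software's test for lying well above background, and 0 reached saturation. The 3 arrays shared 1 slide and 1 scan, and genotype and place on that slide cannot be told apart. Among the targeted genes, Crx read 1062 in the array labelled Otx2 KI, 7177 in the array labelled Crx KO and 9790 in wild-type. Otx2 read 63860 in Otx2 KI, 62981 in Crx KO and 40886 in wild-type. Since the labels do not name the altered exons, the Crx signal in Crx KO does not check that label. With 1 array per genotype no difference has a replicate check, no test could be run and none has a p-value. Each ± is the scanner software's error for that spot, which leaves out the spread between mice, and a gene is called lower or higher at 2-fold or more (1 on the log2 scale).

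In the retina labelled Otx2 KI, 6 of the 8 shut-off genes were lower than wild-type by 2-fold or more: Sag, Arr3, Grk1, Rgs9bp, Gnb5 and Ppef2. Among all 16532 genes tested in that comparison, 2.95% were lower by this rule and 1.53% higher. In the retina labelled Crx KO, 4 of 8 were lower, namely Sag, Arr3, Grk1 and Rgs9bp, against 4.05% of 16783 genes (2.37% higher). No member was higher in either. Grk1 and Rgs9bp passed 2-fold only on their brighter probes, and Gnb5 was just inside it in Crx KO (log2 -0.98). Over the processing settings the counts ran from 5 to 6 in Otx2 KI and from 3 to 4 in Crx KO. The median log2 difference of the members was -1.46 in Otx2 KI, beside 0.02 over all genes, and -1.01 in Crx KO, beside -0.01 over all genes. The wild-type array is shared by both comparisons. Retina is a mixed tissue, so fewer photoreceptors and less RNA per photoreceptor cannot be told apart.

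**Figure D1:**
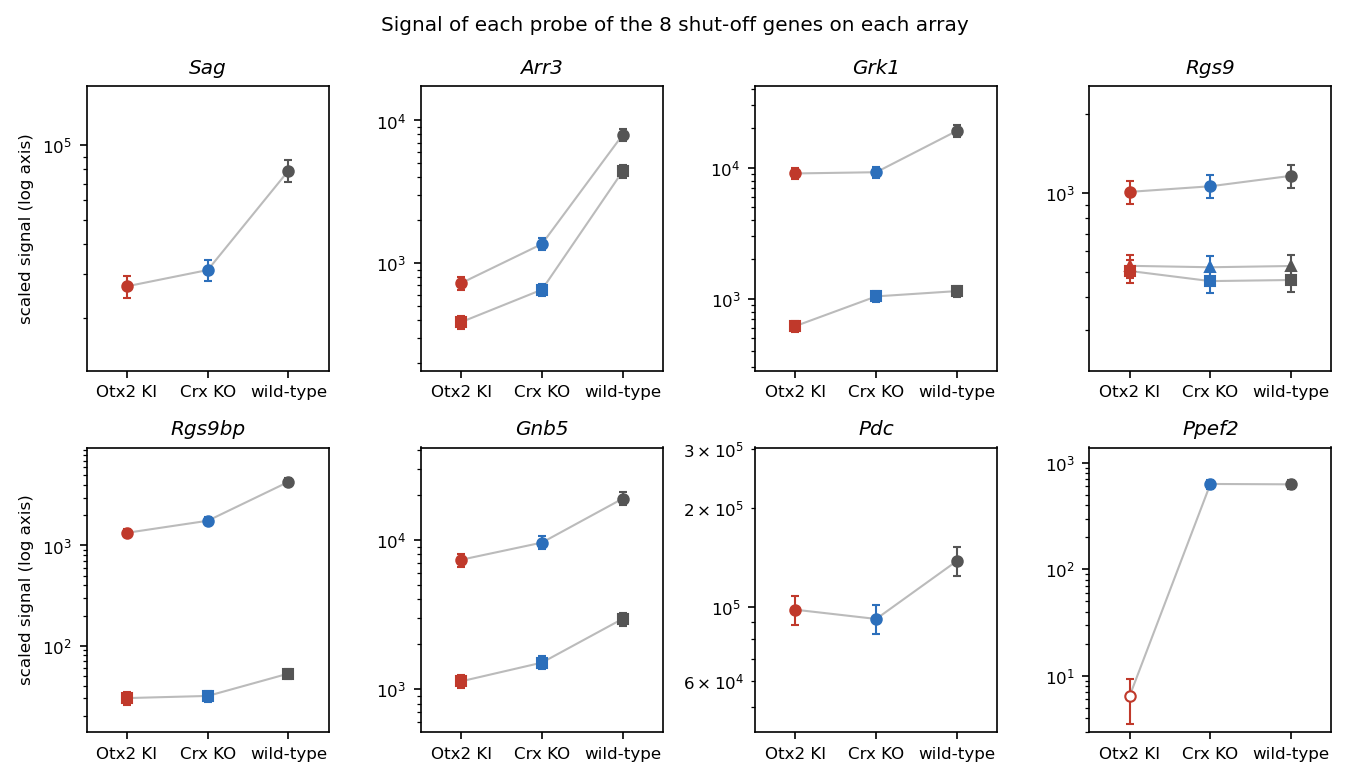
Scaled signal (vertical log axis, its own range in each panel) of each probe of the 8 genes in Otx2 KI, Crx KO and wild-type; symbols separate the probes of a gene, bars are the scanner error and the open point was not well above background. Both mutant points lie below wild-type for Sag, Arr3, Grk1, Gnb5, Rgs9bp and Pdc, the Rgs9 points are nearly level, and Ppef2 is low on 1 array only.

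The arrestins differed in how far they dropped. Arr3, the cone arrestin, read 724 ± 72.4 in Otx2 KI and 1361 ± 136 in Crx KO, against 7930 ± 793 in wild-type. That is 11.0-fold lower in Otx2 KI (log2 -3.45 ± 0.20) and 5.83-fold lower in Crx KO (log2 -2.54 ± 0.20), the lowest measured log2 differences among the 8 genes in each comparison, apart from the bound for Ppef2 in Otx2 KI. Its other probe gave log2 -3.51 and -2.76. Of the 15809 genes measured on both arrays, 28 lay further below wild-type than Arr3 in Otx2 KI, as did 63 of 16050 in Crx KO.

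Sag, the arrestin of rods, read 26874 ± 2687 in Otx2 KI and 31272 ± 3127 in Crx KO, against 78941 ± 7894 in wild-type. Its signal was therefore 34.0% of wild-type in Otx2 KI (log2 -1.55 ± 0.20) and 39.6% in Crx KO (log2 -1.34 ± 0.20). The 2 mutant arrays were within 1.16-fold of each other. Sag has 1 probe, with 1 spot, so no second probe checks it.

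Grk1, the kinase that phosphorylates active opsin, gave 2 answers. On its brighter probe it read 9074 ± 907 in Otx2 KI and 9272 ± 927 in Crx KO, against 19190 ± 1919 in wild-type (log2 -1.08 and -1.05, each ± 0.20). On its other probe it read 620 ± 62.1 in Otx2 KI and 1045 ± 104 in Crx KO, against 1147 ± 115 in wild-type (log2 -0.89 and -0.13). The probes thus agree within their error in Otx2 KI and differ by more than it in Crx KO, where the dimmer probe was at 91.1% of wild-type. With both probes averaged Grk1 was within 2-fold in Otx2 KI (log2 -0.98) and in Crx KO (log2 -0.59), and in the authors' deposited values, with no further scaling, it was at log2 -0.99 in Crx KO. For comparison, the probes of the 4325 genes with more than 1 measured probe had a median SD of 0.10 in that comparison.

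The members of the RGS9 complex did not move together. Rgs9, the catalytic subunit that acts on transducin, read 1010 ± 101 in Otx2 KI and 1061 ± 106 in Crx KO, against 1163 ± 116 in wild-type. These are log2 differences of -0.20 ± 0.20 and -0.13 ± 0.20. The other Rgs9 probes, matched to another RefSeq transcript of the gene, read 505 and 528 in Otx2 KI, 462 and 521 in Crx KO, and 466 and 527 in wild-type. All 3 Rgs9 probes lay within 1.15-fold of wild-type in both mutants.

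Rgs9bp, the membrane anchor of the complex, read 1338 ± 134 in Otx2 KI and 1764 ± 176 in Crx KO, against 4311 ± 431 in wild-type. It was 3.22-fold lower in Otx2 KI (log2 -1.69 ± 0.20) and 2.44-fold lower in Crx KO (log2 -1.29 ± 0.20). A second, dim probe read 30.1 ± 4.3 in Otx2 KI and 31.6 ± 4.0 in Crx KO, against 52.8 ± 5.9 in wild-type. It had the same direction but stayed within 2-fold, at log2 -0.81 and -0.74.

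Gnb5, the beta subunit that stabilises RGS proteins of this class, read 7374 ± 737 in Otx2 KI and 9609 ± 961 in Crx KO, against 18931 ± 1893 in wild-type. It was 2.57-fold lower in Otx2 KI (log2 -1.36 ± 0.20). In Crx KO it was at 50.8% of wild-type (log2 -0.98 ± 0.20), just inside 2-fold. Its second probe gave almost the same differences, log2 -1.39 and -0.97. Gnb5 is not limited to photoreceptors: it also pairs with other RGS proteins of this class in other neurons.

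Those other partners stayed near wild-type. Rgs11, which with Rgs7 speeds GTP hydrolysis in the glutamate receptor cascade of ON-bipolar cells, had a log2 difference of -0.26 in Otx2 KI and 0.10 in Crx KO. Rgs7 was at 0.00 and -0.15. Gpr179, the receptor that holds these complexes at the bipolar dendrite, was at -0.03 in Otx2 KI and 0.12 in Crx KO. The 8 bipolar markers fixed for the check of the tissue were all within 2-fold, with medians of -0.18 in Otx2 KI and -0.06 in Crx KO. Most genes tested in each comparison were also within 2-fold.

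Pdc, which sequesters transducin beta and gamma subunits, stayed within 2-fold. It read 98342 ± 9834 in Otx2 KI and 92228 ± 9223 in Crx KO, against 138004 ± 13800 in wild-type, or 71.3% and 66.8% of it. The log2 differences were -0.49 ± 0.20 and -0.58 ± 0.20, larger than the scanner error in both. The transducin subunits it can bind went opposite ways. Gnb1, the rod beta subunit, was 3.08-fold and Gngt1, the rod gamma subunit, 2.10-fold lower in Otx2 KI, and 3.23-fold and 2.26-fold lower in Crx KO. Gnb3, the cone beta subunit, was at log2 0.56 in both mutants, and Gngt2, the cone gamma subunit, was higher, at log2 2.13 in Otx2 KI and 2.04 in Crx KO.

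**Figure D2:**
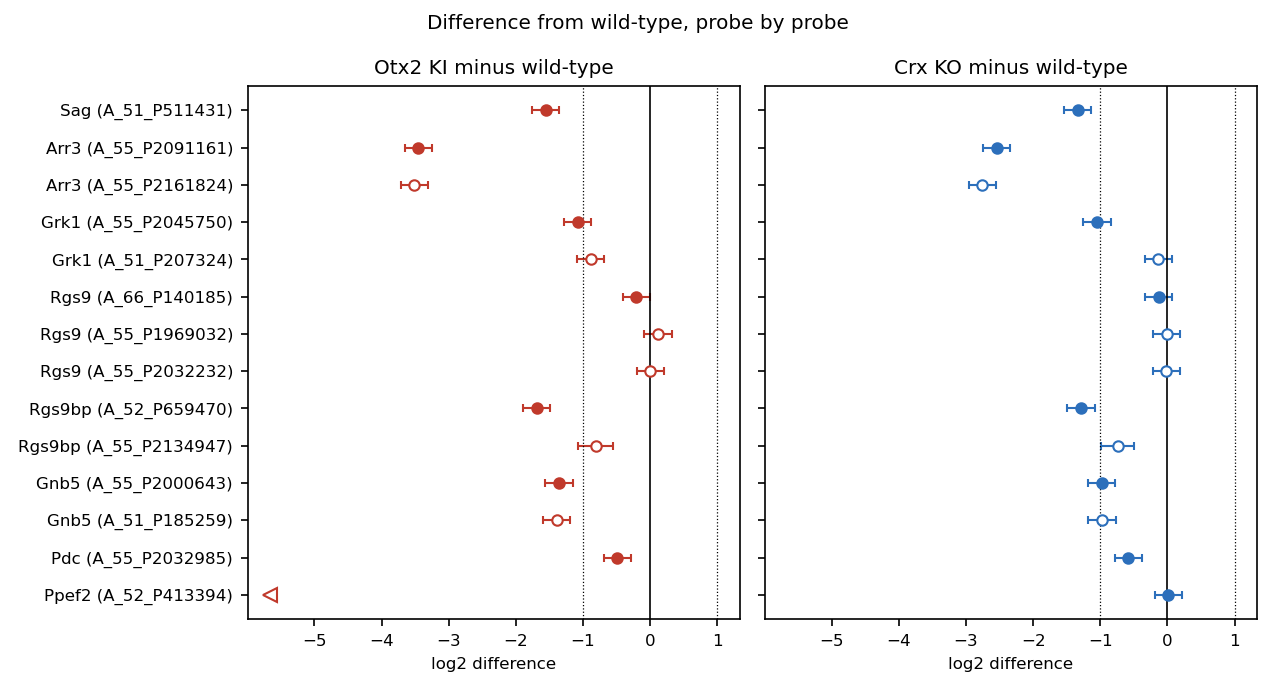
Log2 difference from wild-type of every probe of the 8 genes in Otx2 KI and in Crx KO (horizontal axis); filled points are the probe used for the gene, open circles its other probes, bars the scanner error, the open triangle a bound, and dotted lines 2-fold. The Rgs9 probes lie between -0.20 and 0.11, Arr3 at -3.45 and -2.54, and Ppef2 at or below -5.66 in Otx2 KI but at 0.01 in Crx KO.

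Ppef2 stood apart from the other members. It read 6.47 ± 2.94 in Otx2 KI, where it was not well above background, and 633 ± 63.3 in Crx KO, against 628 ± 62.9 in wild-type. Against the lowest signal well above background on the Otx2 KI array (12.4) it was at least 50.6-fold lower than wild-type in Otx2 KI, and with normexp background correction the log2 bound was -3.14 in place of -5.66. In Crx KO it was at log2 0.01 ± 0.20.

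Ppef2 was then set beside the genes with the same pattern. Of 282 genes that were dim in Otx2 KI only and within 2-fold between Crx KO and wild-type, Ppef2 was the brightest in wild-type. The other 281 read 10.3 to 36.2 in wild-type, and the next brightest, Alox5, a lipoxygenase, read 12.7 in Otx2 KI, 25.5 in Crx KO and 36.2 in wild-type. Of these 281 genes 12 were lower by 2-fold or more as a bound. The set holds only genes dim in Otx2 KI, so a brighter gene with as large a fall could stay measured and be left out. How rare such a fall is among bright genes was not counted.

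The Ppef2 value rests on 1 spot, so its raw readings are given. The spot's raw median signal was 37 in Otx2 KI and 654.5 in Crx KO, against 660.5 in wild-type, over local backgrounds of 31, 28 and 32 in the same order. It was marked neither as non-uniform nor as a population outlier on any array. Of the 8 nearest non-control spots, 5 were measured on both the Otx2 KI and wild-type arrays, and their log2 differences ran from -0.32 to 0.18. The 5 measured on both the Crx KO and wild-type arrays had a wider spread, from -1.61 to 0.67. A comparison added after seeing the value took the 5 measured genes on each side of Ppef2 on its chromosome. None of these 10 genes was past 2-fold in Otx2 KI, and their log2 differences ran from -0.56 to 0.53. A neighbour lost to background in Otx2 KI would have been skipped, so these values cannot show whether neighbours were lost too.

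**Figure D3:**
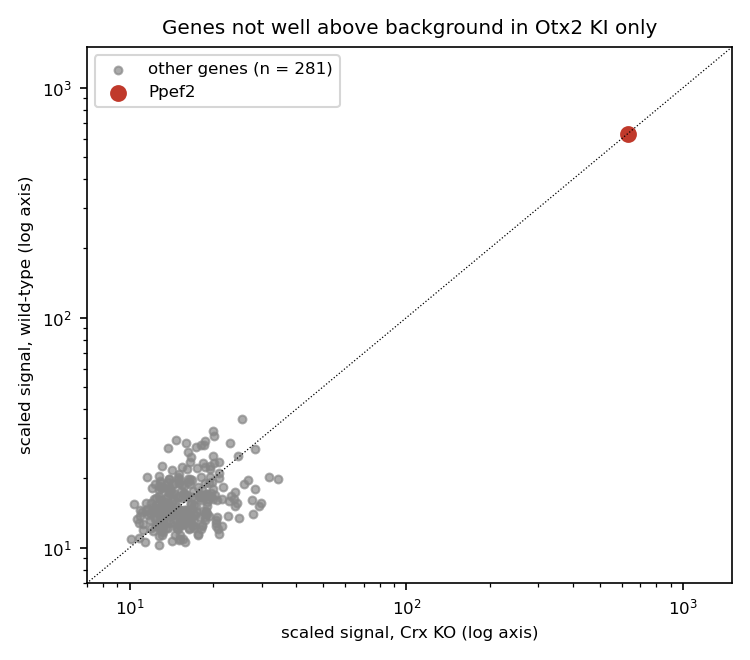
Scaled signal in wild-type (vertical log axis) against Crx KO (horizontal log axis) for the 282 genes not well above background in Otx2 KI only and within 2-fold between the other arrays; the dotted line marks equal signal. Ppef2, at 633 in Crx KO and 628 in wild-type, lies far from the other 281 genes, whose wild-type signal is at most 36.2.

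Set directly against each other, the mutants differed by 2-fold or more at 1 of the 8 genes, Ppef2, which in Otx2 KI lay at least 51.0-fold below its level in Crx KO. Over all 16536 genes 1.03% were lower in Otx2 KI by this rule and 0.98% higher. Arr3 came next, 1.88-fold lower in Otx2 KI (log2 -0.91 ± 0.20, with -0.76 on its other probe). Gnb5 (log2 -0.38, and -0.42 on its other probe) was also lower by more than the scanner error. Rgs9bp was lower by more than the error on its brighter probe (-0.40 ± 0.20) and not on its dim one (-0.07 ± 0.28). Grk1 differed by -0.03 on its brighter probe and by -0.75 on the other. Rgs9 (-0.07) and Pdc (0.09) were within the error, and Sag (-0.22) slightly exceeded it. The median of the members was -0.30, beside 0.03 over all genes.

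The shut-off genes were next set beside other steps of the same pathway. By the same rule, 2.95% of all genes tested were lower and 1.53% higher in Otx2 KI, and 4.05% and 2.37% in Crx KO. Of 17 genes of the activation branch, 12 were lower in Otx2 KI and 12 in Crx KO, and 1, Gngt2, was higher in both. Their medians were -1.53 and -1.69, and Gnat1, the rod transducin alpha subunit, was at log2 -6.95 in Otx2 KI and -5.68 in Crx KO. Of 6 genes of calcium feedback and recovery (Rcvrn, the guanylate cyclases and their activators, and the exchanger Slc24a1), 6 were lower in Otx2 KI (median -4.45) and 4 in Crx KO (median -3.46). Rcvrn, the calcium sensor that holds Grk1 in check, was 65.0-fold lower in Otx2 KI and 41.2-fold lower in Crx KO. Grk1 itself was 2.11-fold and 2.07-fold lower on its brighter probe, and 1.85-fold and 1.10-fold lower on its other probe. Guca1a, an activator of guanylate cyclase, was at log2 -1.97 in Otx2 KI and 0.17 in Crx KO, and the cyclase Gucy2e at -1.66 and -0.47, so both were past 2-fold in Otx2 KI and within it in Crx KO, as Ppef2 was. These differences between lists were not tested.

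**Figure D4:**
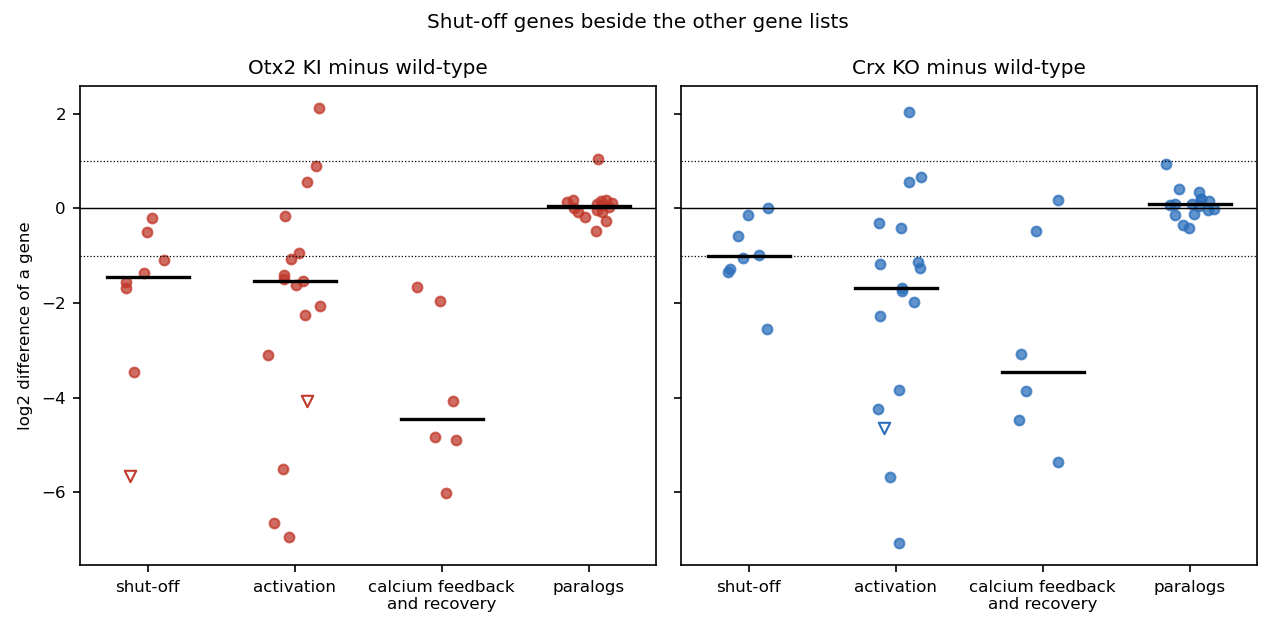
Log2 difference from wild-type of each gene (vertical axis) in 4 lists, for Otx2 KI and for Crx KO; black bars are list medians, open triangles bounds and dotted lines 2-fold. The medians for shut-off, activation, recovery and paralog genes were -1.46, -1.53, -4.45 and 0.06 in Otx2 KI, and -1.01, -1.69, -3.46 and 0.09 in Crx KO.

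Close relatives of the members that work outside the photoreceptor cascade were near wild-type. Of 17 such paralogs, 16 were well above background. Of these, 0 were lower in either mutant and 1, Gnb2, was higher in Otx2 KI. Over all genes 2.95% were lower and 1.53% higher in Otx2 KI, and 4.05% and 2.37% in Crx KO. For 16 genes, 0 or 1 call is near those shares, so the counts do not set the paralogs apart from other genes. The broadly expressed arrestins Arrb1 and Arrb2 were at log2 0.14 and 0.09 in Otx2 KI, and at 0.09 and 0.15 in Crx KO. Ppef1, the relative of Ppef2, was dim but measured on all 3 arrays, at 24.5 in Otx2 KI, 24.8 in Crx KO and 23.8 in wild-type. Gnb2, a broadly expressed beta subunit, read 62401 in Otx2 KI and 57567 in Crx KO, against 30105 in wild-type (log2 1.05 and 0.94), and with quantile normalization it was past 2-fold in Crx KO too.

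Markers of the tissue and of other cell types were read beside these values. All 4 rod markers were well above background on every array. Gnat1 passed 2-fold downwards in both mutants. Nrl lay close to 2-fold in both, at log2 -0.89 in Otx2 KI and -1.01 in Crx KO, and passed it only in Crx KO. Rom1 was at log2 -0.60 in Otx2 KI and -0.53 in Crx KO, and Nr2e3, a rod nuclear receptor, at -0.20 and -0.38. The summed signal of the rod list was 241817 in Otx2 KI and 239732 in Crx KO, against 477565 in wild-type. That of the 5 cone markers was 9894 in Otx2 KI and 11777 in Crx KO, against 45888 in wild-type, and Opn1sw was not well above background in either mutant. The cone markers did not fall alike: 3 were lower by 2-fold or more and 2 stayed within 2-fold in each mutant. Their log2 differences ran from -6.66 to -0.60 in Otx2 KI and from -7.08 to -0.31 in Crx KO. Amacrine, horizontal, ganglion, Muller glia and microglia lists had 0 members past 2-fold in either mutant. Most genes tested did not pass it either: 2.95% were lower and 1.53% higher in Otx2 KI, and 4.05% and 2.37% in Crx KO. Of the 8 pigment epithelium markers measured, 2 were lower in Otx2 KI and 6 in Crx KO, with a summed signal of 11752 in Otx2 KI and 7658 in Crx KO, against 23183 in wild-type. Of 5 lens markers 4 were higher in Otx2 KI, with sums of 843 in Otx2 KI, 286 in Crx KO and 360.5 in wild-type. The part of these differences in the values of the shut-off genes was not tested.

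The genes whose differences from wild-type lay closest to those of a member were named by distance over both comparisons, among 14841 other named genes. The distance is taken over 2 differences that share the wild-type array. Arr3 had few near it: the nearest was Gckr, the glucokinase regulator (log2 -3.39 in Otx2 KI and -2.67 in Crx KO, distance 0.14), and 1 gene in all lay within 0.25. Sag had 41 genes within that distance, the nearest being Trim36 (log2 -1.56 and -1.31), and Gnb5 had 48, the nearest being Apobec2 (-1.37 and -0.98). Rgs9bp had 21, led by Insl5 (-1.68 and -1.38), and Grk1 had 144, led by Trip10 (-1.06 and -1.05). Each gene was placed by its brightest probe. The other probes of Grk1 (-0.89 and -0.13) and Rgs9bp (-0.81 and -0.74) lay further than 0.25 from the points used.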

How the data were processed

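RNA of postnatal day 12 mouse retina was measured on 3 arrays, 1 per genotype, grouped by the labels' titles. The deposited scanner files hold intensity per spot, written by Agilent Feature Extraction 12.0.3.1 for an mm9 design, per the file headers. The authors' deposited value table also holds intensity. Compared with the scanner files, it is the processed signal times 1 constant per array (2.54 for Otx2 KI, 2.61 for Crx KO and 2.49 for wild-type), so its scale is linear, uncentred and of the same direction, with column medians of 125.7, 135.8 and 129.8. The sources used here do not say how the constants were set.

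From the processed signal, control and outlier spots were left out (132, 126 and 136 outliers for Otx2 KI, Crx KO and wild-type), spots of a probe were averaged on the log2 scale, and arrays were scaled by their 75th percentile. Accessions matched to RefSeq genes of GRCm38.p6 named 28329 of 55675 probes (50.9%). A gene took its brightest probe by mean log2 signal over the arrays. Genes well above background on 1 array of a comparison entered as a bound against the higher of their own signal and the lowest signal well above background there (12.4 in Otx2 KI, 8.33 in Crx KO and 10.2 in wild-type). Calls were made by size at 2-fold. Probes printed at 10 spots had a median SD of 0.064 to 0.067 (log2), and the number of arrays limits the precision. The scanner error of a log2 difference had a median of 0.20.

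Alternatives were normexp with offset 50, quantile and median scaling, no filter on dim probes, averaged probes and the authors' values. Normexp used the median spot signal, since the files hold no mean signal. The members, the lists and the rule for named genes (all members, at most 6 genes of each list, and the genes closest in pattern) were chosen with earlier results of these data known. A gene of the activation and rod marker lists is not reported here and was left out of both. Tools were Python 3.11.15, numpy 2.4.6, pandas 2.3.3, R and limma 3.58.1. The call step was tested on simulated data with large falls in bright genes, which does not check calls near 2-fold or bounds.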

Additional observations from a re-analysis of the deposited data

Results flagged for a closer look

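Ppef2 was the member past 2-fold on 1 mutant array and level with wild-type on the other. Its log2 difference from wild-type was -5.66 as a bound in Otx2 KI and 0.01 in Crx KO, with 1 array each. The value in Crx KO is smaller than its scanner error of 0.20, and the difference between the mutants was not tested.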

How the results depend on the processing

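No test rests on these arrays, so only sizes and calls could be compared between settings. Over 8 members, 3 comparisons and 6 settings, 141 of 144 values kept their call. The 3 that changed were all Grk1: averaged probes put it at log2 -0.98 in Otx2 KI and -0.59 in Crx KO against wild-type, and the authors' deposited values put it at -0.99 in Crx KO. Many of the 144 values could not change, so this share is no measure of robustness. Leaving out the filter alters only Ppef2, and averaging probes leaves Sag, Pdc and Ppef2, with 1 probe each, as they were. Median scaling and the authors' values only shift each array by a constant. The count of members lower by 2-fold or more was 5 to 6 in Otx2 KI, 3 to 4 in Crx KO and 1 in Otx2 KI against Crx KO. The members' median in Crx KO was -0.78 with averaged probes, against -1.01, and the other medians moved by no more than the scanner error under these settings. The bound for Ppef2 in Otx2 KI was -3.14 with normexp, which adds an offset to every signal, and its measured difference without the filter on dim probes was -6.60. The same settings were applied to the other lists after their values had been seen; the count of recovery genes past 2-fold downwards between Otx2 KI and Crx KO ran from 1 to 4, and Gnb2 passed 2-fold in Crx KO with quantile normalization. Calls over all genes depended on background handling: with normexp 296 genes were lower and 133 higher in Otx2 KI, and 342 and 196 in Crx KO, against 488 and 253, and 680 and 398. Without the filter they were 906 and 498, and 1075 and 789. Between Otx2 KI and Crx KO the calls were 170 lower and 162 higher, 62 and 37 with normexp, and 581 and 394 without the filter; median scaling gave 156 and 185, quantile normalization 152 and 190. No paired analysis was possible because each genotype has 1 array.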
